A study of Homo sapiens with 4 samples.

Results

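Aldo-keto reductases are soluble enzymes that reduce aldehydes and ketones to alcohols, and 7 of their genes were followed here in starved renal carcinoma cells: AKR1A1, AKR1B1, AKR1B10, AKR1C1, AKR1C2, AKR1C3 and AKR7A2. They were taken by symbol from a table of 57820 genes, and all 7 were found. All had a mean of at least 1 TPM, a transcript level per length and per library total. The libraries were made from 786-0 cells, an established human line from a clear cell renal carcinoma. In 2 libraries, called shGLUD1, the cells carried a short hairpin RNA against GLUD1, the mitochondrial glutamate dehydrogenase, and in 2 others, called shNT, the control hairpin. All were starved of amino acids for 12 h, with no fed group. How many hairpins or clones were used is not stated, nor whether replicates were separate cultures. The p-values weigh a group difference against the spread between these libraries, in part shared across genes, and that spread may be technical.

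Most of these enzymes take electrons from NADPH and hold their substrate in a barrel-shaped fold. Their substrates range from glucose and aldehydes made by lipid peroxidation to retinal, steroids and prostaglandins. In the kidney, aldose reductase makes sorbitol, an osmolyte of the medulla. Several members, the AKR1C genes and AKR1B10 among them, are known targets of NRF2, the transcription factor of the oxidative stress response.

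The AKR1C genes lie side by side on chromosome 10 and are close copies, which limits how reads can be told apart. On GRCh38, AKR1C1 (ENSG00000187134) spans 4963253 to 4983283 on the plus strand, AKR1C2 (ENSG00000151632) 4987400 to 5018031 on the minus strand and AKR1C3 (ENSG00000196139) 5035354 to 5107686 on the plus strand. The gap between AKR1C1 and AKR1C2 is 4.12 kb, and that between AKR1C2 and AKR1C3 17.3 kb. In the GENCODE principal transcripts each has 972 coding bases. The coding sequence of AKR1C2 differs from that of AKR1C1 at 19 bases (98% identity), and that of AKR1C3 differs from AKR1C1 at 83 (91.5%). The stretch below, coding bases 103 to 162, is the 60-base window with the most differences between AKR1C2 and AKR1C1. It is shown because such positions are where a read can be assigned to 1 copy. Capitals mark the 15 positions at which the 3 copies are not all alike.
AKR1C1: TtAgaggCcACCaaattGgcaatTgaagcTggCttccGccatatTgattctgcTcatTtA
AKR1C2: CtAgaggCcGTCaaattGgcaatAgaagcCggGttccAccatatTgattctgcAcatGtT
AKR1C3: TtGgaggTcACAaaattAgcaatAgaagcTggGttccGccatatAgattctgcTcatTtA
Of all windows of 50 coding bases, 54.5% in AKR1C1, 57.2% in AKR1C2 and 23% in AKR1C3 were found in a transcript of another gene. The share was 28.4% in AKR1B10, 10.2% in AKR7A2, 7.21% in AKR1B1 and 0% in AKR1A1. Windows outside the coding bases were not searched, and these make up most of the principal transcripts of AKR1C1 (6705 bases) and AKR1C2 (3756 bases). No source used here names the quantifier or the read length, so the split between AKR1C copies is uncertain, and their sum is reported beside the single values. The sum is not free of that split. TPM are per length and the transcripts differ in length, with 1807 bases in AKR1C3, so reads moved between copies could also alter the sum.

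The AKR1C promoter windows are printed because AKR1C1 and AKR1C2, with nearly the same sequence there, gave different values in the libraries. These are the 250 bases before the RefSeq start (GRCh38.p14, transcript direction). That start lies 162 (AKR1C1), 166 (AKR1C2) and 621 (AKR1C3) bases from the start of the GENCODE principal transcript. The AKR1C1 window crosses the GENCODE gene start, and those of AKR1C2 and AKR1C3 lie inside the gene spans given above. AKR1C1 is at chr10:4963165-4963414 on the plus strand, AKR1C2 at chr10:5003858-5004107 on the minus strand, and AKR1C3 at chr10:5094164-5094413 on the plus strand, before the RefSeq start nearest to that of its GENCODE principal transcript. Capitals in AKR1C2 and AKR1C3 mark bases that differ from, or have no partner in, the aligned AKR1C1 sequence.
AKR1C1: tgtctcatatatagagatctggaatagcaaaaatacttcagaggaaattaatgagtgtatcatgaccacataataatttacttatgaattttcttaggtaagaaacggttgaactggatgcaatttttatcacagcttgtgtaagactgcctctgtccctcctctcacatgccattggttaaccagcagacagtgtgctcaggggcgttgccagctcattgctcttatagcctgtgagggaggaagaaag
AKR1C2: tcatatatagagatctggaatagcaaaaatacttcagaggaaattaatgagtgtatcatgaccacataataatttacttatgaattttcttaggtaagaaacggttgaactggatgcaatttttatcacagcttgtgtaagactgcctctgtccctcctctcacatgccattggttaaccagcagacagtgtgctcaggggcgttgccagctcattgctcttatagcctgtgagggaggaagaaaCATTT
AKR1C3: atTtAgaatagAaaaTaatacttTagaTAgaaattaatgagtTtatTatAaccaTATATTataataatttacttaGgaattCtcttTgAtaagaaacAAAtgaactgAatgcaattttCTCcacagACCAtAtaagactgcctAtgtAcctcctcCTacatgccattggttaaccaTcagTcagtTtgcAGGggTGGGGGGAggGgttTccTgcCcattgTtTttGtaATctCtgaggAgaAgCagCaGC
The AKR1C2 and AKR1C1 sequences share an unbroken run of 245 bases, offset by the position of the annotated start, and the capitals at the end of AKR1C2 lie past that run. AKR1C3 is 69.2% identical to AKR1C1, and their longest shared run is 19 bases. The motifs below were searched on both strands in the windows of 6 members found in the RefSeq table. The distance to the GENCODE start was 283 bases in AKR1A1, 42 in AKR1B1 and 0 in AKR7A2. The AKR1A1 window lies inside its GENCODE gene span, so not all windows are upstream by that annotation. The core of the antioxidant response element, TGACNNNGC, was found 3 times in AKR7A2 and in none of the other 5 windows, and in 10.9% of 35116 promoter windows. GAANNTTC, a part of the heat shock element, was found once each in AKR1C1 and AKR1C2 (5.78% of windows), at the same site of their shared run. CCAAT was found once each in AKR1B1, AKR1C1, AKR1C2 and AKR1C3 (32% of windows). GGGCGG was found in AKR1A1, AKR1B1 and AKR7A2 (42.6%). The AP-1 site TGANTCA (6.57%), the C/EBP-ATF element TGATGNAA (3.14%) and TATAAA (10.7%) were found in none. No matches of different motifs overlapped. These are matches of letters in short windows and say nothing of binding.

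The targeted gene and the libraries were read first. GLUD1 (ENSG00000148672, GRCh38 chromosome 10, 87050486 to 87094866) had 13.5 and 19.8 TPM in shGLUD1, against 18.1 and 17.4 TPM in shNT, so on TPM it was lower in 1 shGLUD1 library and higher in the other (-0.11 on the log2 scale, limma adjusted p = 0.631). On the rescaled TPM described below GLUD1 was lower in shGLUD1 (-0.83, interval -1.17 to -0.49, limma adjusted p = 0.0023). Below, shGLUD1 stands for the libraries labelled so, and directions follow that label. PAX8, a renal transcription factor, was at 5.18 and 7.48 TPM in shGLUD1 and 8.07 and 8.75 TPM in shNT. VIM, the mesenchymal filament gene that this line expresses, was at 2902 and 3756 TPM in shGLUD1 and 931 and 891 TPM in shNT. Among other listed markers of such a line, EPAS1, KRT8, CDH2 and CA9 were higher in shGLUD1 on TPM, and KRT18 and NNMT lower. KRT18 was at most 1.87 TPM. Of the fibroblast markers, LUM was at most 9.42 TPM, COL1A1 at most 5.19 TPM and DCN at most 0.93 TPM. PAX2 was at most 0.12 TPM, and of the 3 leukocyte markers PTPRC was at most 0.01 TPM and CD3E at most 0.05 TPM in every library. The third, the lysosomal gene CD68, was at 209 and 241 TPM in shGLUD1 and 159 and 146 TPM in shNT, and its part in the values below was not tested. Cytosolic ribosomal protein genes held 23.3% and 21.2% of all TPM in shGLUD1 and 31.6% and 32.1% in shNT, and their part in the values below was not tested. TPM keep no read totals, so depth is unknown. The median of the 12524 genes tested was 0.63 log2 units higher in shGLUD1, and 56.7% of genes were called higher and 7.77% lower (limma on log2(TPM + 1), adjusted p under 0.05). Each member is therefore given also on median-ratio rescaled TPM, where libraries are divided by a factor that sets the median gene to no change. On that scale 23.2% of genes were higher and 27.9% lower, 51.1% in all. In bulk RNA, fewer cells of a type and less RNA per cell cannot be told apart.

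Of the 7 aldo-keto reductases, AKR1C2 and AKR1C3 rose in shGLUD1 and none fell. That is 28.6% of the members, against 56.7% of all genes called higher, 7.77% called lower and 64.5% called in either direction. The other 5 did not pass. Their log2 fold changes lay between -0.15 and 0.34, and the median of all 7 was 0.13, against 0.63 for all genes tested. On rescaled TPM, AKR1C3 was higher, AKR1A1, AKR1B1, AKR1C1 and AKR7A2 were lower, and AKR1B10 and AKR1C2 did not pass. The 4 lower members are 57.1%, against 27.9% of all genes, and 23.2% of all genes were higher and 51.1% were called in all. On this scale 5 of 7 members were called, and the median of the 7 was -0.63. In 6 of 7 members the groups did not overlap on TPM, close to the 83.4% of all genes, and AKR1C1 was the exception. For a gene taken alone, an exact two-sided permutation of 2 against 2 libraries cannot give a p below 0.333. Test values here therefore rest on spread that limma shares across genes.

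**Figure D1:**
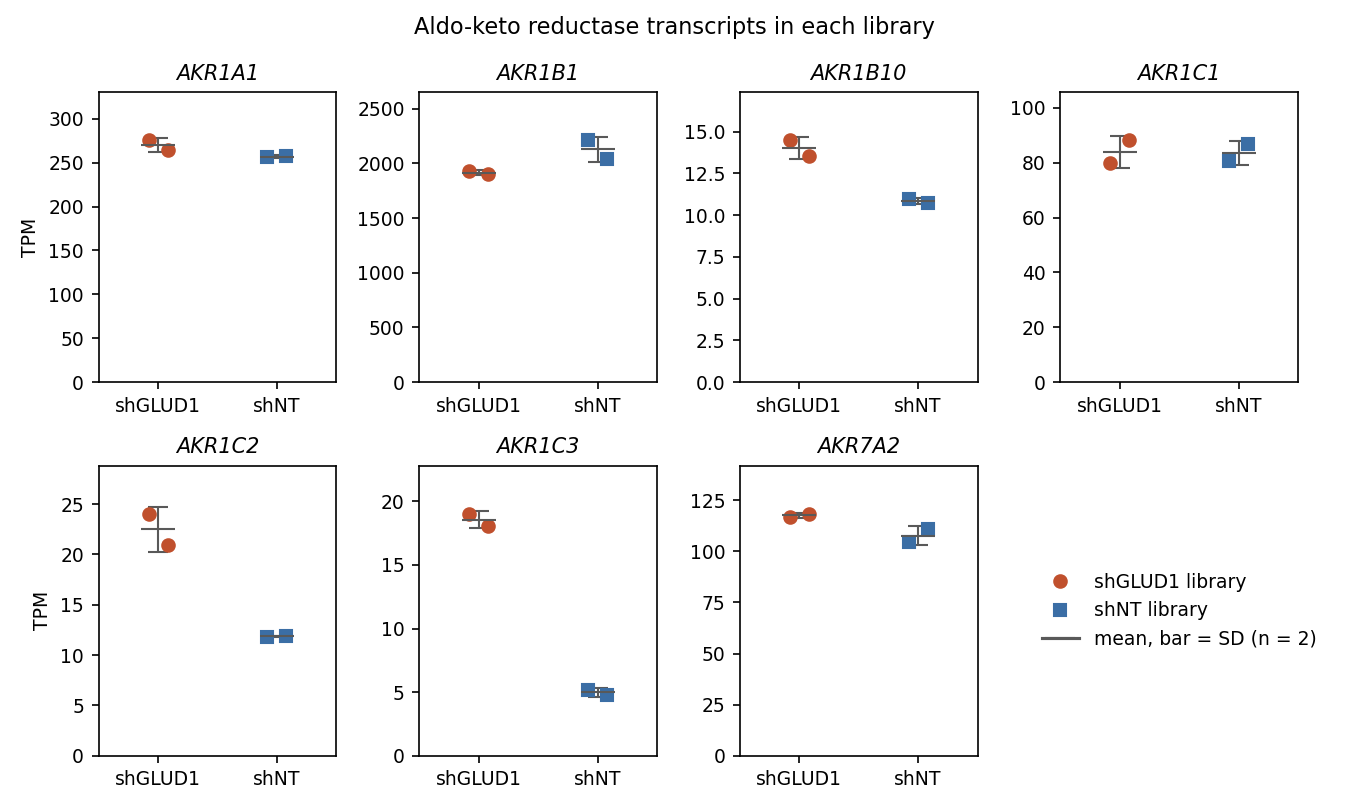
TPM (vertical axes, each from 0) of the 7 genes in each library, shGLUD1 as circles and shNT as squares, with the mean and SD of 2 libraries. AKR1C3 and AKR1C2 stand clearly higher in shGLUD1, AKR1C1 overlaps, and AKR1B1 lies between 1899 and 2210 TPM.

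AKR1C3 was the member with the largest change. It reduces androstenedione to testosterone and also makes prostaglandin F from prostaglandin D. It stood at 19.0 and 18.1 TPM in shGLUD1 and at 5.2 and 4.74 TPM in shNT. Both shGLUD1 libraries were more than 3 times as high as both shNT libraries, and the ratio of means was 3.73. On the log2 scale it rose by 1.71 (SE 0.18, 95% interval 1.31 to 2.12, limma adjusted p = 3.39e-05). On rescaled TPM it stood at 15.6 and 12.8 in shGLUD1 and 6.75 and 6.11 in shNT (a log2 change of 1.03, SE 0.16, limma adjusted p = 0.0012). It was called higher in every one of the 12 alternative settings, with log2 fold changes between 0.98 and 1.88. The largest limma adjusted p was 0.0117, with no filter on low values. The smallest limma adjusted p, 1.3e-14, came from the replicate block, and it rests mainly on spread shared across genes.

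AKR1C2, which inactivates dihydrotestosterone, stood at 24.0 and 20.9 TPM in shGLUD1 and at 11.8 and 11.9 TPM in shNT. The shNT values nearly coincide and both shGLUD1 values lie above them, with a ratio of means of 1.9. It rose by 0.87 on the log2 scale (SE 0.16, interval 0.51 to 1.22, limma adjusted p = 0.00092). The median gene moved by 0.63 on the same scale. On rescaled TPM, values of 19.7 and 14.9 in shGLUD1 overlapped 15.4 and 15.3 in shNT, and the call was lost (0.15, interval -0.22 to 0.51, limma adjusted p = 0.452). It was also lost under quantile normalization (0.21, limma adjusted p = 0.317).

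AKR1C1, which inactivates progesterone, held the most TPM of the 3 copies. It stood at 79.8 and 88.2 TPM in shGLUD1 and at 80.6 and 86.8 TPM in shNT, and the groups overlapped. The log2 change was 0.0043 (SE 0.11, interval -0.24 to 0.25, limma adjusted p = 0.975), so on TPM the interval holds neither the change of AKR1C2 nor that of AKR1C3. On rescaled TPM it was lower, at 65.4 and 62.6 in shGLUD1 and 105 and 112 in shNT (-0.75, SE 0.11, limma adjusted p = 0.00093).

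The difference between the copies was tested within libraries, where scaling cancels apart from the pseudocount. AKR1C3 relative to AKR1C1 was 0.238 and 0.205 in shGLUD1 and 0.0645 and 0.0546 in shNT. AKR1C2 relative to AKR1C1 was 0.301 and 0.237 in shGLUD1 and 0.147 and 0.137 in shNT. Both ratios were higher in both shGLUD1 libraries than in either shNT library. In a fit of all genes relative to AKR1C1, the change of AKR1C3 exceeded that of AKR1C1 by 1.71 log2 units (SE 0.17, limma adjusted p = 4.41e-05) and that of AKR1C2 by 0.86 (SE 0.16, limma adjusted p = 0.0013). In that fit 57.8% of all genes were higher and 7.46% lower, and 2 of the 6 members were higher and none lower. The differences for AKR1A1, AKR1B1, AKR1B10 and AKR7A2 lay between -0.15 and 0.34 and did not pass, with intervals that together ran from -0.50 to 0.70. This fit was added after the data were seen.

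**Figure D2:**
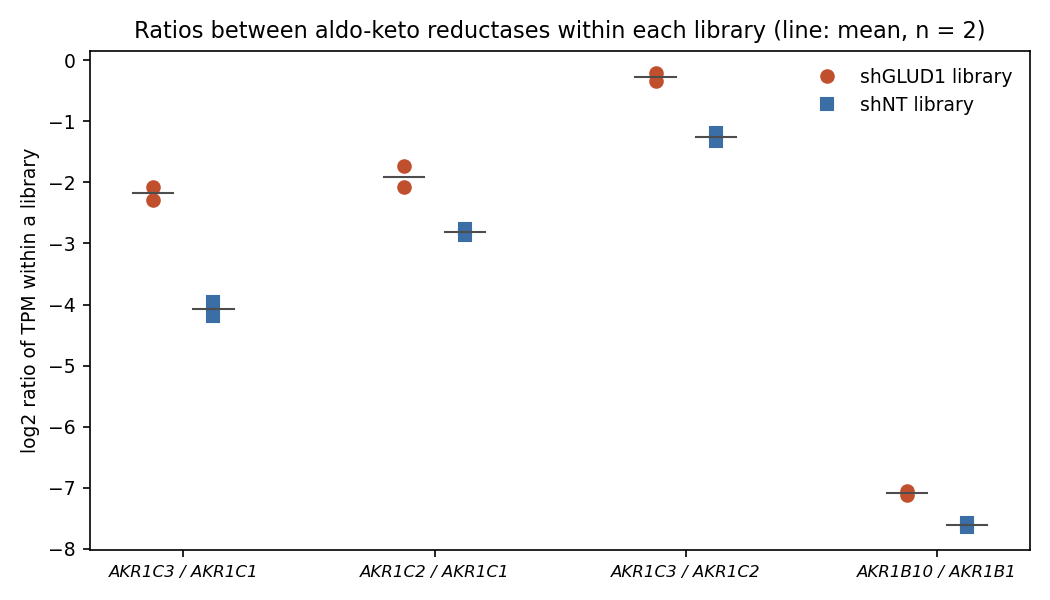
Log2 ratio of TPM between members within each library (vertical axis), shGLUD1 as circles and shNT as squares, lines at the mean of 2. AKR1C3 over AKR1C1 lies at -2.07 and -2.29 in shGLUD1 and at -3.95 and -4.19 in shNT.

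Summed, the 3 AKR1C copies stood at 123 and 127 TPM in shGLUD1 and at 97.6 and 103 TPM in shNT. The groups did not overlap, and the sum rose, by 0.31 on the log2 scale (SE 0.10, 0.0205 as the adjusted p of limma). This call depended on single libraries and on scaling. Without shGLUD1 replicate 2 the value was 0.29 (limma adjusted p = 0.057), without shNT replicate 1 it was 0.27 (limma adjusted p = 0.181) and without shNT replicate 2 it was 0.35 (limma adjusted p = 0.0793). On rescaled TPM the sum was lower (-0.44, limma adjusted p = 0.0123). AKR1C1 made up 65% and 69.3% of the sum in shGLUD1 and 82.6% and 83.9% in shNT. AKR1C2 made up 19.6% and 16.5% in shGLUD1 and 12.1% and 11.5% in shNT, and AKR1C3 15.5% and 14.2% in shGLUD1 and 5.33% and 4.58% in shNT. Whether reads moved between copies in the quantification was not tested, and such a move could alter the sum as well as the shares.

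**Figure D3:**
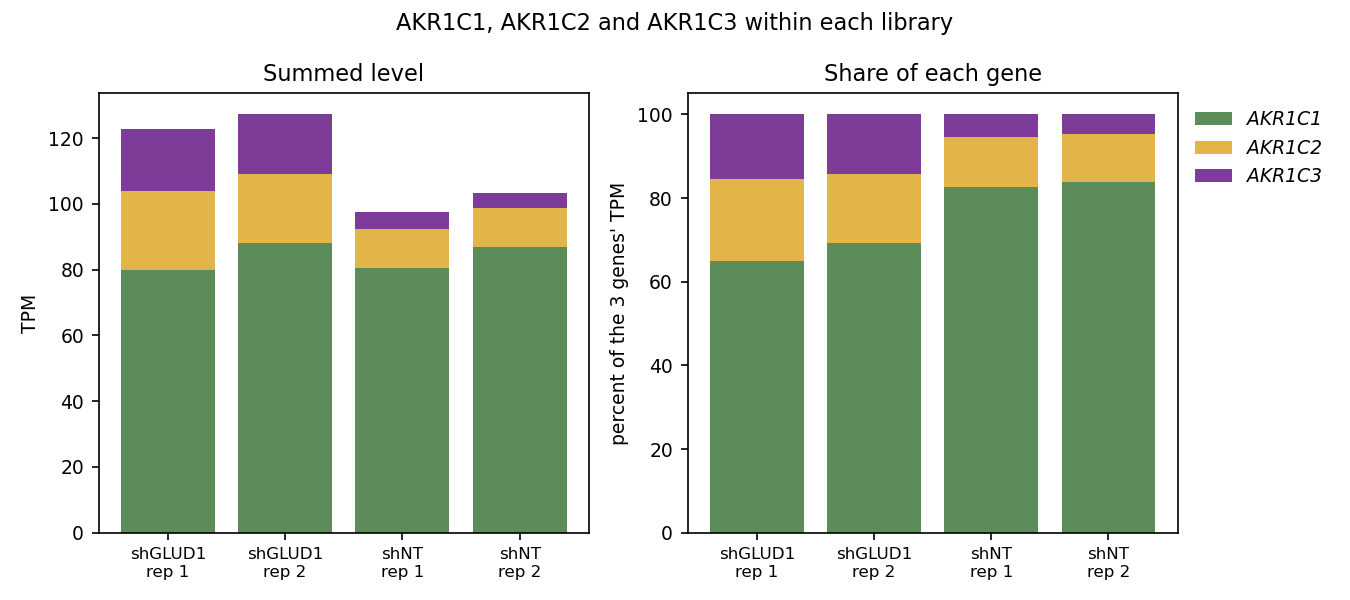
Stacked TPM of AKR1C1, AKR1C2 and AKR1C3 in each library (left, TPM) and the share of each in their sum (right, percent). AKR1C1 is at about 80 to 88 TPM in all libraries, while AKR1C3 makes up 15.5% and 14.2% of the sum in shGLUD1 and 5.33% and 4.58% in shNT.

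AKR1B1, aldose reductase, makes sorbitol from glucose in the first step of the polyol pathway. It lies on chromosome 7 (GRCh38, 134442350 to 134459284, minus strand, ENSG00000085662) and was by far the most abundant member. It stood at 1932 and 1899 TPM in shGLUD1 and at 2210 and 2044 TPM in shNT. Both shGLUD1 libraries were below both shNT libraries, by little. AKR1B1 ranked 93 and 87 among the 12524 genes in shGLUD1 and 80 and 85 in shNT. It held 78.5% and 78.4% of the TPM of the 7 members in shGLUD1 and 82.5% and 80.9% in shNT. Its change on the log2 scale, -0.15, did not pass (SE 0.085, interval -0.34 to 0.037, limma adjusted p = 0.14). On rescaled TPM it was lower, at 1583 and 1347 in shGLUD1 and 2869 and 2636 in shNT (-0.91, SE 0.17, limma adjusted p = 0.0025).

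AKR1B10, a reductase of retinal and other aldehydes, lies 68.3 kb from AKR1B1 on the plus strand (GRCh38 chromosome 7, 134527592 to 134541408, ENSG00000198074). It stood at 14.5 and 13.6 TPM in shGLUD1 and at 11.0 and 10.7 TPM in shNT. The groups did not overlap, but the change did not pass (0.34, SE 0.17, limma adjusted p = 0.101), nor did the rescaled value (-0.36, limma adjusted p = 0.0757). Its neighbour AKR1B15, 7.73 kb away, shares 19.7% of the AKR1B10 coding windows. AKR1B15 stood at 3.89 and 6.29 TPM in shGLUD1 and at 3.44 and 2.77 TPM in shNT (0.55, SE 0.26, limma adjusted p = 0.0874). It was 0.83 without shGLUD1 replicate 1 (limma adjusted p = 0.0254) and 0.26 without shGLUD1 replicate 2 (limma adjusted p = 0.369). It also passed with the replicate block (0.55, limma adjusted p = 0.0465) and with length and GC trends removed (0.71, limma adjusted p = 0.0157). Summed after the data were seen, the pair stood at 18.4 and 19.9 TPM in shGLUD1 and 14.4 and 13.5 TPM in shNT. The pair was higher by 0.43 on the log2 scale (SE 0.16), at an adjusted p of 0.0352 by limma. Without shNT replicate 2 it was 0.38 (limma adjusted p = 0.245), without shNT replicate 1 it was 0.47 (limma adjusted p = 0.154) and without shGLUD1 replicate 2 it was 0.37 (limma adjusted p = 0.085). On rescaled TPM the pair was at -0.29, which did not pass.

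AKR1A1, aldehyde reductase, reduces glucuronate and other aldehydes (GRCh38 chromosome 1, 45550543 to 45570049, plus strand, ENSG00000117448). It stood at 275 and 265 TPM in shGLUD1 and at 256 and 258 TPM in shNT. The log2 change of AKR1A1 was 0.071 (SE 0.091, interval -0.13 to 0.27, limma adjusted p = 0.51), and on rescaled TPM -0.69 (SE 0.13, limma adjusted p = 0.0027). AKR7A2, which reduces succinic semialdehyde and the aflatoxin dialdehyde, lies on the same chromosome (19303965 to 19312146, minus strand, ENSG00000053371). It stood at 117 and 118 TPM in shGLUD1 and at 104 and 111 TPM in shNT. The log2 change of AKR7A2 was 0.13 (SE 0.10, interval -0.10 to 0.35, limma adjusted p = 0.299), and on rescaled TPM -0.63 (SE 0.12, limma adjusted p = 0.0027). For both genes the shGLUD1 libraries were above the shNT libraries on TPM and below them once rescaled.

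**Figure D4:**
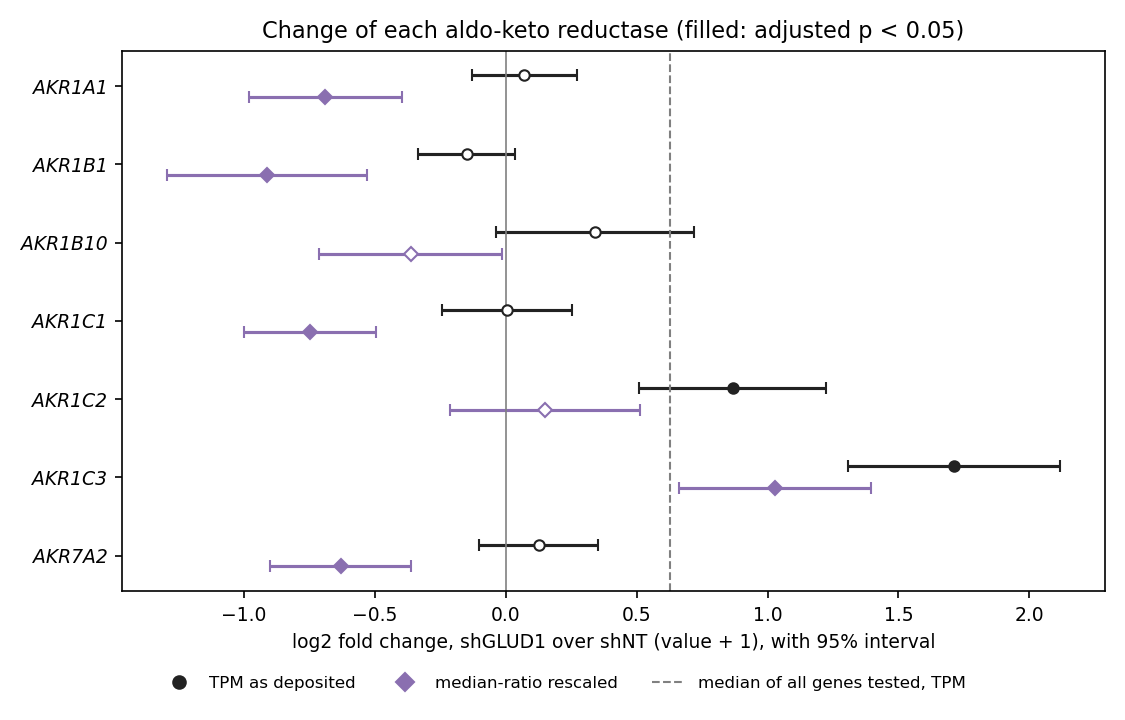
Log2 fold change of each member, shGLUD1 over shNT, with its 95% interval, on TPM (circles) and on rescaled TPM (diamonds), filled where the adjusted p was under 0.05. The dashed line is the median of all genes on TPM, 0.63. AKR1C3 alone is filled above 0 on both scales.

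By TPM, which is per length, the order of means in shGLUD1 was AKR1B1 (1916 ± 23.2 TPM), AKR1A1 (270.0 ± 7.57), AKR7A2 (118 ± 1.12), AKR1C1 (84.0 ± 5.91), AKR1C2 (22.5 ± 2.19), AKR1C3 (18.5 ± 0.67) and AKR1B10 (14.02 ± 0.64; SD, n = 2). In shNT the order was AKR1B1 (2127 ± 118 TPM), AKR1A1 (257 ± 1.56), AKR7A2 (108 ± 4.72), AKR1C1 (83.7 ± 4.37), AKR1C2 (11.9 ± 0.035), AKR1B10 (10.9 ± 0.17) and AKR1C3 (4.97 ± 0.33; SD, n = 2). AKR1C3 and AKR1B10 thus stand in opposite order in the groups. Neighbours in either order did not overlap between libraries. The 3 genes nearest to AKR1C3 by distance of centred log2 values over 4 libraries were SIPA1, a GTPase-activating protein of Rap (distance 0.057), EHD2, an ATPase of caveolae (0.061), and TNKS1BP1, which binds tankyrase (0.093). Their log2 fold changes were 1.70, 1.65 and 1.70, in that order, against 1.71 for AKR1C3, and the measure reads the size of a change as well as its direction.

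The rest of the family was low. Of 20 other AKR rows in the table, pseudogenes included, 13 were listed at 0 in all 4 libraries and only AKR1B15 had a mean of at least 1 TPM. AKR1C4, the liver form, was at 0 and 0.06 TPM in shGLUD1 and 0.14 and 0 TPM in shNT. AKR1D1, which reduces bile acid and steroid precursors, was at most 0.08 TPM, and AKR1E2 was listed at 0. AKR7A3 was at 0.40 and 0.22 TPM in shGLUD1 and 0.09 and 0.08 TPM in shNT, and AKR7L at 0.03 and 0.38 TPM in shGLUD1 and 0.09 and 0.02 TPM in shNT. Among the potassium channel beta subunits, which share the fold, KCNAB2 rose (12.4 and 10.1 TPM in shGLUD1, 3.96 and 5.05 TPM in shNT, log2 fold change 1.15, limma adjusted p = 0.00094), but did not pass once rescaled (0.49). KCNAB1 had means of 1.51 ± 0.035 TPM in shGLUD1 and 0.98 ± 0.34 TPM in shNT (SD, n = 2) and did not pass (0.35, limma adjusted p = 0.245). KCNAB3 was below 1 TPM in every library.

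Genes around these enzymes were counted by list, to be read on TPM against 56.7% higher and 7.77% lower over all genes, and on rescaled TPM against 23.2% higher and 27.9% lower. Of 5 tested genes of the polyol pathway and osmoprotection, 3 rose and none fell, with 1 higher and 1 lower rescaled. SORD, which turns the sorbitol made by AKR1B1 into fructose, stood at 22.5 and 33.9 TPM in shGLUD1 and at 15.1 and 12.8 TPM in shNT (0.94, rescaled 0.22), and KHK, fructokinase, had a log2 fold change of 0.76 (rescaled 0.06). Neither passed once rescaled. Of 16 other carbonyl reductases 8 rose and 1 fell, with 2 higher and 5 lower rescaled. PTGR1, a prostaglandin reductase and NRF2 target, rose on both scales (1.34, rescaled 0.60), as did DHRS1 (1.53, rescaled 0.86). Of 13 aldehyde and alcohol dehydrogenases 7 rose and 1 fell, and rescaled 5 each were higher and lower. ALDH1B1, a mitochondrial aldehyde dehydrogenase, stood at 11.0 and 13.3 TPM in shGLUD1 and 3.04 and 2.90 TPM in shNT (1.72, rescaled 1.08).

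Prostaglandin, steroid, retinoid and glucuronate genes belong to pathways of these enzymes' substrates. Of 9 prostaglandin genes 2 rose and 2 fell, while rescaled none rose and 5 were lower. TBXAS1, thromboxane synthase, fell (9.48 and 8.69 TPM in shGLUD1, 21.5 and 23.0 TPM in shNT, -1.21, rescaled -1.91). PTGS2, the inducible cyclooxygenase, had a log2 fold change of -0.69 (limma adjusted p = 0.0282) that did not pass without shNT replicate 1 (-0.66, limma adjusted p = 0.154), shNT replicate 2 (-0.71, limma adjusted p = 0.127) or shGLUD1 replicate 1 (-0.58, limma adjusted p = 0.0608). On rescaled TPM PTGS2 was lower (-1.20, limma adjusted p = 0.0014). Of 14 steroid genes 5 rose and 1 fell, with 1 higher and 5 lower rescaled. Of 13 retinoid genes 9 rose and 1 fell, with 3 higher and 3 lower rescaled, and the retinoic acid receptor gene RARG was higher on both scales (1.65, rescaled 0.98). Of 4 genes of glucuronate, inositol and the GABA shunt 2 rose and none fell, with none higher and 1 lower rescaled.

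For the cofactor, 10 of 15 genes of NADPH supply rose and 1 fell, with 3 higher and 5 lower rescaled. MTHFD1, a folate enzyme that can form NADPH, stood at 46.3 and 54.8 TPM in shGLUD1 and 13.2 and 14.8 TPM in shNT (1.78, rescaled 1.05), and IDH1, cytosolic isocitrate dehydrogenase, had a log2 fold change of 1.19 (rescaled 0.44). Of 26 tested NRF2 regulators and targets other than aldo-keto reductases, 10 rose and 8 fell, while on rescaled TPM 1 was higher and 14 were lower. NFE2L2, the NRF2 gene itself, stood at 6.78 and 9.74 TPM in shGLUD1 and at 3.35 and 3.10 TPM in shNT (1.11, rescaled 0.48, which did not pass). HMOX1, the inducible heme oxygenase, fell, with 110 and 125 TPM in shGLUD1 and 789 and 749 TPM in shNT (-2.70, rescaled -3.46). NQO1, a quinone reductase singled out with its values known, fell as well (-0.86, rescaled -1.62). The listed targets TXNRD1 (1.04, rescaled 0.30), GCLM, GSR, PRDX1 and BLVRB were higher on TPM and did not pass once rescaled. ABCC1, another listed target, was higher on both scales (1.12, rescaled 0.56), but did not pass under quantile normalization (0.42, limma adjusted p = 0.0899).

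**Figure D5:**
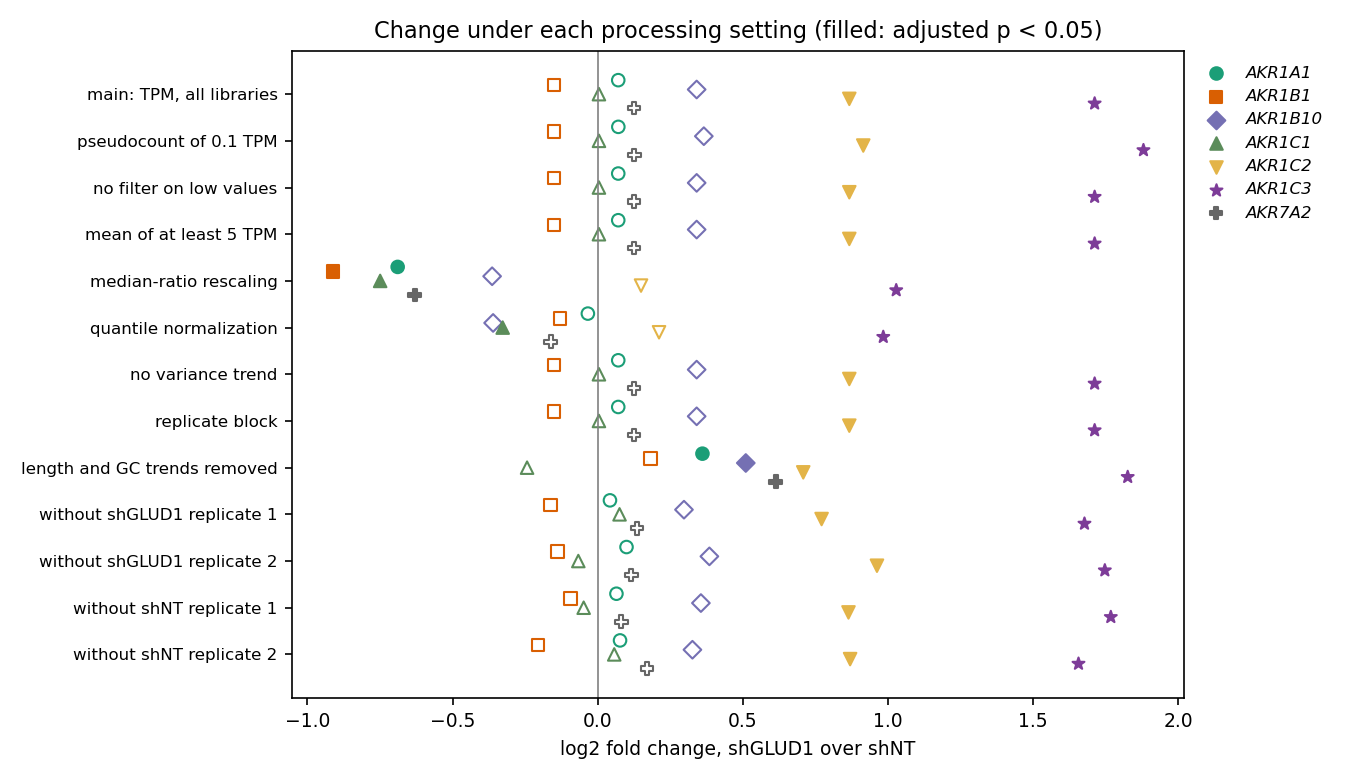
Log2 fold change of each member (horizontal axis) under the setting used in the text and 12 alternatives (rows), filled where the adjusted p was under 0.05. AKR1C3 is filled and above 0 in every row, and AKR1C2 is unfilled only under median-ratio rescaling and quantile normalization.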

How the data were processed

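Libraries were made with the TruSeq V2 kit from total RNA, per the labels' protocols. The authors deposited 1 table of TPM, scaled within each library to 1000000. Bowtie 0.12.2 and 2 builds, hg38 and the mouse build mm8, are named in the submitters' processing notes, with no role given. No source used here states the quantifier, annotation or filters. TPM keep no depth, so no counting interval can be given, and a fall in abundant transcripts raises all others.

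The 12524 of 57820 genes whose average reached 1 TPM were tested as log2(TPM + 1), a scale that understates changes of low genes, with limma 3.58.1 in R 4.3.3 (variance trend, group as the only term, two-sided). P-values were Benjamini-Hochberg adjusted over all genes, with a threshold of 0.05. Intervals are 95%. The fit was also run on simulated data with independent noise, in which no gene or a small part of the genes changed. Most genes tested were called in these libraries, so that run does not test the calls given here. For the AKR1C and AKR1B sums, the sum replaced the single rows in the fit. Alternatives were a pseudocount of 0.1 TPM, no filter, a filter at an average of 5 TPM, median-ratio rescaling, quantile normalization, a fit with no variance trend, a replicate block, removal of length and GC trends (loess), and leaving out each library. Positions and transcripts came from GENCODE release 29 and promoters from RefSeq. Sequences were aligned with Biopython 1.88 in Python 3.11.15. Members, gene lists and tests were chosen with earlier results of these data known. Named genes were GLUD1, the members, the other aldo-keto reductases, up to 4 called genes of each list with the largest change, and the 3 genes nearest to AKR1C3, and the text gives a part of them. NQO1, TXNRD1, GCLM, GSR, PRDX1 and BLVRB were named outside that rule, with their values known. Of 176 listed symbols 175 were found.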

Additional observations from a re-analysis of the deposited data

How the results depend on the processing

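AKR1C3 was called higher in all 12 alternatives. AKR1C2 lost its call under median-ratio rescaling and quantile normalization and kept it in the other 10. The count of members changed was 2 (also under quantile normalization, as AKR1C3 higher and AKR1C1 lower), and 5 under rescaling (1 higher, 4 lower) and 5 with length and GC trends removed (all higher: AKR1A1, AKR1B10, AKR1C2, AKR1C3 and AKR7A2). For that, length and GC came from each gene's longest coding transcript, or its longest transcript where none was coding. Which transcript the cells express was not tested. Genes called higher made up 88% of all calls, but 45.5% under rescaling and 51.5% under quantile normalization. The AKR1C sum was 0.31 and still 0.31 without a variance trend (limma adjusted p = 0.111), -0.44 rescaled, 0.027 under quantile normalization (0.824) and 0.064 with trends removed (0.667), and 0.27 to 0.35 with each library left out. Under rescaling the signs of AKR1A1 (-0.69), AKR1B10 (-0.36), AKR1C1 (-0.75), AKR7A2 (-0.63), AKR1B15 (-0.064), KCNAB1 (-0.065) and the AKR1B10 and AKR1B15 sum (-0.29) changed. Under quantile normalization those values were -0.034, -0.36, -0.33, -0.16, -0.20, -0.25 and -0.23, in the same order. With trends removed AKR1B1 was 0.18 and AKR1C1 -0.24. With libraries left out, where a lone library is assumed to vary like the other group, AKR1C1 lay between -0.067 and 0.075 and GLUD1 between -0.37 and 0.15, positive without shGLUD1 replicate 1, while GLUD1 was called lower rescaled (-0.83, limma adjusted p = 0.0023) and under quantile normalization (-0.75, limma adjusted p = 0.0076). The causes were not tested. Deviations of libraries with the same replicate number were nearly uncorrelated (r = 0.039). That value cannot show whether they shared a culture or a preparation, as each group has 2 libraries. With the replicate block 8456 genes changed, against 8078, 2 members changed, and the AKR1C sum was 0.31 (limma adjusted p = 0.0312). With a mean of at least 5 TPM AKR1B15, KCNAB1 and PTGS2 were not tested. With depth unknown, no limit can be set for genes listed at or near 0.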
